A study of Mus musculus with 12 samples.

Results

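The BCL2 family decides whether a cell permeabilises its mitochondria, and 10 of its genes were followed in mouse bone marrow-derived macrophages: the BH3-only genes Bmf, Bcl2l11, Bbc3, Pmaip1 and Bid, the pore-forming effectors Bax and Bak1, and the protective genes Bcl2, Bcl2l1 and Mcl1. They were taken as a list by name, and of each gene the transcript with the most counts over all libraries was read. All 10 were found among the 24445 genes of the deposited tables. Macrophages were grown for 7 to 8 days from C57BL/6 marrow, either wild type (WT) or with a myeloid knockout (KO) of DOT1L, a histone methyltransferase; the strain's label carries the name of Lyz2, the gene commonly used to drive Cre in myeloid cells. The cells were left untreated or given lipopolysaccharide (LPS) of Escherichia coli at 10 ng/mL for 3 hours. There were 4 groups of 3 libraries, and 1 library of each group, replicate 2, was male by its sex-linked transcripts. The labels do not say which alleles the WT mice carried, nor whether the libraries came from separate mice, so p-values measure the spread between these libraries.

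BH3-only proteins sense stress and act on the other members. They occupy the groove of the protective proteins, and some of them also activate Bax and Bak1 directly, which then open the outer mitochondrial membrane and release cytochrome c to the apoptosome. Protective members hold both in check. Macrophages meet bacterial products such as LPS while they must stay alive to respond, and the balance between the classes is set in part by transcription and in part by protein turnover, which messenger RNA does not show. Levels in bulk RNA cannot tell fewer expressing cells from less RNA per cell.

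Total counts ran from 8.64 to 13.54 M (1e6) per library, so that 3 counts correspond to 0.222 to 0.347 counts per 1e6 counts (CPM). Dot1l itself lay at 82.4 to 111 CPM in untreated WT and 85.7 to 97.8 CPM in untreated KO libraries, and at 60.6 to 69.2 and 65.3 to 73.3 CPM with LPS. It was not called in either condition (adjusted p = 0.902 and 0.754, edgeR), but counts over the whole transcript check nothing where only some exons are deleted. Lyz2 lay at 5730 to 7980 CPM in WT and 2620 to 3440 CPM in KO libraries. Macrophage markers were all present in every group. Untreated, their sum was lower in KO libraries, at 7410 to 8320 against 10200 to 13100 CPM. With LPS it lay at 8750 to 9880 against 12100 to 14900 CPM. Lyz2 led this list, with means of 2760 CPM in KO against 6250 in WT untreated and 3130 against 7000 with LPS. The lower sum therefore mostly follows Lyz2 and does not show a fall of the other macrophage markers. Stromal markers summed to at most 1.2 CPM, while Il7r led the lymphocyte list (179 to 455 CPM), of whose 8 genes 1 to 3 had 0 reads in a group, and Itgax the dendritic list (117 to 130 CPM). Neutrophil markers summed to 10.7 to 43.5 CPM and mast cell markers, led by Kit, to 6.29 to 24.6 CPM. Summed monocyte markers were higher in KO libraries, at 79.5 to 100.0 against 43.1 to 73.1 CPM untreated and 301 to 308 against 186 to 245 CPM with LPS. So was the sum of the erythroid and megakaryocyte list, led by Pf4 and with 0 reads of Hbb-bs and Hba-a1, at 135 to 158 against 90.4 to 102 CPM and 177 to 253 against 135 to 143 CPM. The part of these lists in the differences below was not tested. WT replicate 1 stood apart in both conditions, at 33.6 and 30.9 on the second principal component, where the other 10 libraries lay between -12.4 and 2.32.

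Read per length, as the authors' RPKM, Mcl1 was the most abundant member in every group. In untreated WT libraries it lay at 217 to 267 RPKM. Bak1 (77.4 to 89.9), Bax (68.2 to 91.6) and Bcl2l1 (46.0 to 76.1) followed, and Bax overlapped with both of the others. Bid came next at 29.2 to 44.4 RPKM, then Bcl2l11 (16.0 to 17.3) and Pmaip1 (15.1 to 17.2), which overlapped. Bbc3 (5.74 to 6.59), Bcl2 (2.97 to 4.62) and Bmf (1.10 to 1.68) were the lowest, and these last ranges did not overlap. In WT libraries with LPS the order changed at the low end: Pmaip1, at 3.06 to 4.66 RPKM, lay below Bbc3 at 5.79 to 6.53, and Bmf was listed at 0.

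The members are spread over the genome. On GRCm38.p6, Bmf lies at chr2:118528757-118549686, Bcl2l11 at chr2:128126038-128162547, where it overlaps Acoxl, Bcl2l1 at chr2:152758732-152833803 and Bcl2 at chr1:106538176-106714290. Because the strand setting of the counting is not given, reads of Bcl2l11, Bcl2, Bcl2l1, Bak1 and Bid in stretches shared with an overlapping gene cannot be told apart from that gene's. RefSeq promoter windows, from 250 bases before to 50 after a start, were matched for 9 members, and of each the window nearest to the 5′ end of the transcript read was used. Those of Bmf and Bcl2, which fell with LPS, and of Bcl2l11, which did not, are shown, read on the gene's strand (Bmf chr2:118549637-118549936, minus; Bcl2 chr1:106714241-106714540, minus; Bcl2l11 chr2:128125788-128126087, plus). Capitals mark matches on either strand to an NF-kB-like pattern, 3 G followed by any 5 bases and 2 C, and to GTAAACA, a FOXO pattern.
Bmf: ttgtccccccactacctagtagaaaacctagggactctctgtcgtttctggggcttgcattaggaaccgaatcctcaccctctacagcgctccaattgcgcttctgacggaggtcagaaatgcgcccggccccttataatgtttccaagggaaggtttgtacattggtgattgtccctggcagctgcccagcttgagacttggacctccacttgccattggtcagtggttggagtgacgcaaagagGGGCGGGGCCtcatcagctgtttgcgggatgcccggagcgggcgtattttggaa
Bcl2: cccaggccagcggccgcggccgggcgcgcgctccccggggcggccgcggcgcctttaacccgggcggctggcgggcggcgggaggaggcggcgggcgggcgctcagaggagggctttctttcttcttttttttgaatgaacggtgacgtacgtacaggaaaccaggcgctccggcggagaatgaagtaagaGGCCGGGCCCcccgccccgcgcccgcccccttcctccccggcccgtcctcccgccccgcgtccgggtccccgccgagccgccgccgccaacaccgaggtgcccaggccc
Bcl2l11: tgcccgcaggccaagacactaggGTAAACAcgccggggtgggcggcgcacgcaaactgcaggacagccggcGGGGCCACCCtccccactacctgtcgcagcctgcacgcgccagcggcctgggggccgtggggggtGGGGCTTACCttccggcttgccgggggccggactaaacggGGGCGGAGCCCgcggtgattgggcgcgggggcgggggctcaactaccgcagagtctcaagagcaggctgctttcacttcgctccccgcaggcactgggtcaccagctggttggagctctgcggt
The NF-kB-like pattern is loose: 50.8% of 32851 promoter windows held it, as did those of all 9 members. The FOXO pattern was held by 3.65% of windows and, among the windows used, by that of Bcl2l11 alone; another RefSeq window of Bbc3 held it too. The AP-1 pattern TGANTCA (7.81% of windows) and the CRE pattern TGACGTCA (1.79%) were in none of the 9 used. The patterns searched do not overlap with each other by their letters, although a GC-rich stretch can match the NF-kB-like pattern on both strands.

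The comparison of LPS-treated with untreated cells asks how the family behaves in an inflammatory response. Bmf, Pmaip1 and Bcl2 fell in both genotypes, and Bak1, Bcl2l1, Bbc3 and Bcl2l11 rose relative to other genes but not by library totals. In all, 7 of 10 members were called in WT, beside 57.4% of 11984 genes tested (27.6% higher and 29.8% lower), and 9 of 10 in KO, beside 61.2% (30.3% higher and 30.9% lower). At this background a call with LPS does not set a member apart. The median log2 fold change of the members was 0.15 in WT and 0.28 in KO, against -0.05 and -0.02 over all genes.

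Bmf, a BH3-only gene whose protein is held at the cytoskeleton, was all but lost. WT libraries held 7.84, 4.99 and 4.72 CPM untreated, a sum of 216 reads, and 0 reads in all 3 with LPS. KO libraries held 7.77, 11.1 and 7.15 CPM untreated, a sum of 379 reads, and 4, 3 and 0 reads with LPS. The groups did not overlap in either genotype. Against 3 counts over the group, Bmf was at least 47.9-fold lower with LPS in WT, and in KO the ratio of pooled CPM was 40.0-fold lower (95% interval 19.2 to 100.0, exact binomial, counting error only).

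Pmaip1 encodes Noxa, the BH3-only partner of Mcl1. It went from 41.5, 36.8 and 42.0 CPM to 12.1, 12.1 and 16.5 CPM in WT, and from 46.9, 38.7 and 41.9 to 16.2, 10.4 and 14.6 CPM in KO. Every LPS library lay below every untreated library. The log2 fold change was -1.56 ± 0.16 (SE, n = 3 per group; adjusted p = 1.68e-06, edgeR) in WT and -1.63 ± 0.16 (adjusted p = 7.24e-07) in KO.

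Bcl2, the founding protective member, went the same way. Its WT libraries lay at 21.6, 27.5 and 30.7 CPM untreated and 11.2, 14.7 and 11.8 CPM with LPS, and its KO libraries at 23.2, 17.1 and 21.0 against 11.2, 8.31 and 7.61 CPM. The groups did not overlap. The log2 fold change was -1.08 ± 0.18 in WT (edgeR adjusted p = 0.000155) and -1.17 ± 0.18 in KO (adjusted p = 6.99e-05). Bmf, Pmaip1 and Bcl2 fell under every scaling tried.

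Bak1, Bcl2l1, Bbc3 and Bcl2l11 rose in both genotypes relative to the typical gene, which is what TMM scaling measures, but by library totals none of them was called higher. TMM scaled the LPS libraries at 0.772 to 0.847 of their totals and the untreated ones at 1.15 to 1.26. With library totals the median gene moved by -0.59 in WT and -0.62 in KO on the log2 scale, and the split of all called genes changed from 3309 higher and 3567 lower to 1723 and 7621 in WT, and from 3633 and 3700 to 1777 and 7823 in KO. Which scaling is nearer to RNA per cell cannot be read from these tables. Changes of these members are therefore given relative to other genes.

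Bak1, a resident pore-former of the outer membrane, lay at 181, 142 and 146 CPM in untreated WT libraries and 294, 215 and 227 CPM with LPS. In KO it lay at 146, 137 and 141 against 215, 192 and 220 CPM. The log2 fold changes were 0.65 ± 0.12 (edgeR adjusted p = 0.000398) and 0.56 ± 0.12 (0.00112) under TMM, and 0.10 and -0.03 by library totals.

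Bcl2l1, which encodes the protective protein Bcl-xL, lay at 122, 184 and 175 CPM in untreated WT libraries and at 207, 249 and 249 CPM with LPS. In KO libraries it went from 122, 117 and 125 to 195, 186 and 209 CPM. The log2 fold change was 0.55 ± 0.13 (edgeR adjusted p = 0.00245) in WT and 0.70 ± 0.13 (0.000376) in KO under TMM, against 0.00 and 0.11 by library totals. Within the protective class Bcl2 fell under either scaling, while the estimate for Bcl2l1 was at or above 0.

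Bcl2l11 encodes Bim, a BH3-only protein that binds all protective members. Its WT libraries lay at 88.0, 77.9 and 74.4 CPM untreated and 117, 102 and 95.5 CPM with LPS. Its KO libraries lay at 92.5, 109 and 95.7 against 133, 182 and 133 CPM. The log2 fold change was 0.39 ± 0.13 (edgeR adjusted p = 0.0187) in WT and 0.59 ± 0.13 (0.000996) in KO, against -0.16 and 0.00 by library totals. Without WT replicate 1 of the LPS group, the value in WT was 0.31 and was not called (adjusted p = 0.072).

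Bbc3, which encodes Puma, a p53 target, was low and tight: 11.4 to 11.9 CPM in untreated WT, 16.5 to 17.2 CPM with LPS, 12.9 to 13.1 CPM in untreated KO and 15.6 to 17.3 CPM with LPS. It changed by 0.53 ± 0.10 (edgeR adjusted p = 0.000398) and 0.32 ± 0.10 (0.0103) under TMM, and by -0.02 and -0.27 by library totals, the latter called lower.

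Bid, which caspase 8 cleaves into an active form, and Bax were called in KO and not in WT, a difference between genotypes that the interaction test described further on did not call. Bid lay at 55.4 to 76.9 CPM untreated and 65.9 to 87.4 CPM with LPS in WT, and at 62.6 to 75.6 against 88.7 to 90.3 CPM in KO. It changed by 0.23 ± 0.13 (edgeR adjusted p = 0.151) and 0.33 ± 0.13 (0.0419) under TMM. Bax, the effector that moves from the cytosol to mitochondria, changed by 0.07 ± 0.09 (0.566) and 0.24 ± 0.09 (0.0391). By library totals Bid stood at -0.31 and -0.27, not called, and Bax at -0.48 and -0.36, called lower in both genotypes. With the replicate number as a block, Bid was also called in WT, at 0.23 (adjusted p = 0.00412). In KO, leaving out single libraries ended the call of Bid in 7 of 12 cases and that of Bax in 5 of 12.

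Mcl1, the short-lived protective member, lay at 695 to 940 CPM in untreated WT, 675 to 797 CPM with LPS, 684 to 745 CPM in untreated KO and 660 to 715 CPM with LPS, and these ranges overlapped. It changed by -0.11 ± 0.11 (edgeR adjusted p = 0.443) and -0.07 ± 0.11 (0.622) relative to other genes, and by -0.65 and -0.66, called lower, by library totals. By library totals 5 members in all were called lower in WT, beside 63.6% of genes, and 6 in KO, beside 65.3%.

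**Figure D1:**
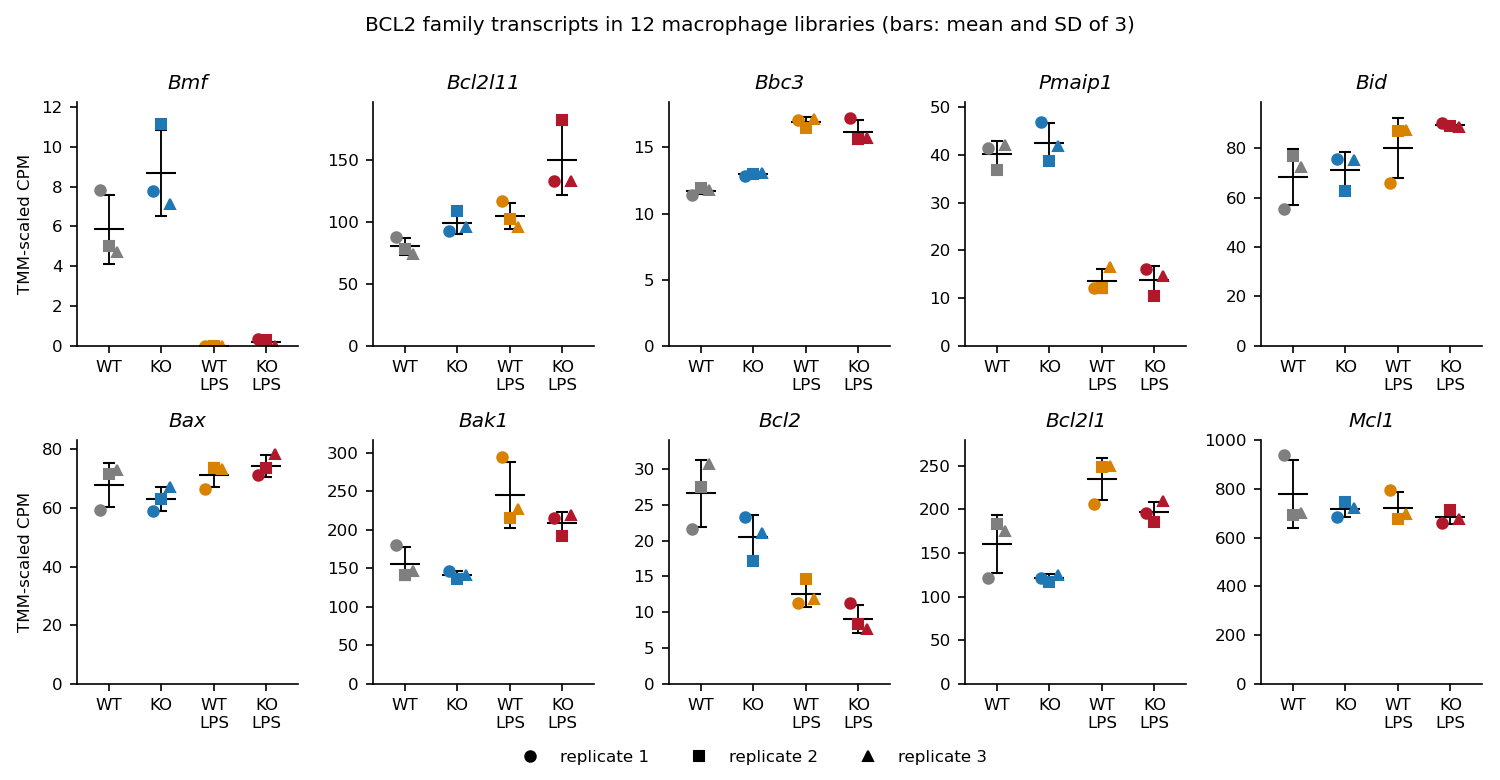
TMM-scaled CPM (y axis, linear from 0) of the 10 members in untreated and LPS-treated WT and KO libraries, with a point per library shaped by replicate number and bars for the mean and SD of 3. Bmf, Pmaip1 and Bcl2 are lower with LPS in every library of both genotypes under every scaling tried, while the higher LPS levels of Bak1, Bcl2l1, Bbc3 and Bcl2l11 hold relative to other genes and not by library totals.

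**Figure D2:**
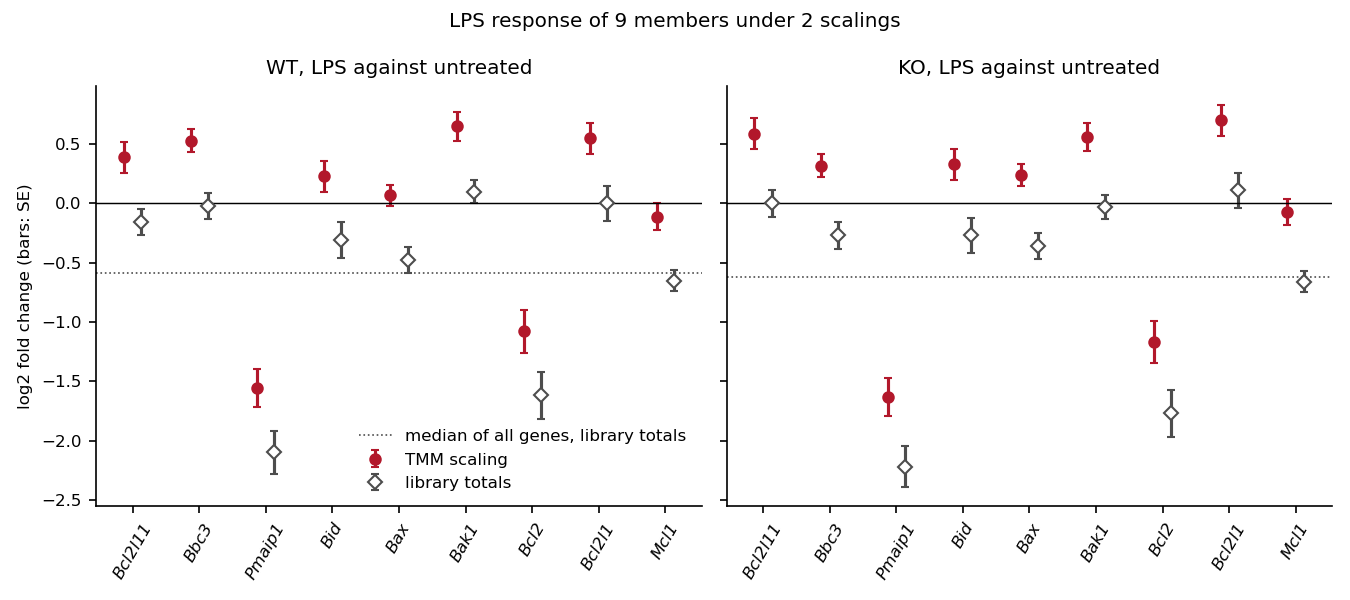
Log2 fold change with LPS (y axis, bars are SE) of 9 members in WT and KO cells under TMM scaling (filled circles) and library totals (open diamonds), with the median of all genes under library totals as a dotted line. Bmf is left out because its LPS libraries hold 0 to 4 reads; Pmaip1 and Bcl2 lie below 0 and below the dotted line, and 6 members that lie above 0 under TMM lie near or below 0 by library totals.

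Bcl2l11 held a further change that does not depend on scaling between libraries, noticed after its values were seen. The tables list short transcripts, NM_001284410 and NM_001291016, which GENCODE pairs with a transcript that shares 3 early exon stretches and ends in an exon of its own at chr2:128129637-128131495, within an intron of the full-length NM_207680. Reads of NM_001284410 came to 5.8%, 6.4% and 7.5% of those of NM_207680 in untreated WT libraries and to 15.0%, 12.7% and 15.0% with LPS. In KO libraries they came to 7.7%, 7.7% and 5.8% untreated and 12.6%, 13.4% and 13.3% with LPS. The groups did not overlap in either genotype, and the share was 2.17 and 1.85 times as high with LPS (exact permutation test, two-sided, p = 0.1 in each, the smallest that 3 against 3 allows). NM_001291016, paired with the same GENCODE transcript, gave 2.0 and 1.79 times and is no separate case. Reads in the shared stretches count for both transcripts, so RNA of NM_207680 alone would already give some share. The percentage is therefore not a level of the short transcript. Whether the change lies in the own exon was not tested. Whether reads in that exon come from a spliced RNA or from unspliced RNA was not tested either. The shares of the other transcripts of Bcl2l11, Bcl2 and Bcl2l1 with LPS were 0.875 to 1.01 times those untreated. Among them NM_009754 of Bcl2l11 in WT (0.971 times), NM_207681 of Bcl2l11 in KO (1.01 times) and NM_009743 of Bcl2l1 in KO (1.01 times) also did not overlap, while NM_177410 of Bcl2 and NM_001289717 and NM_001289739 of Bcl2l1 overlapped in both genotypes.

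The comparison of KO with WT asks whether the family depends on DOT1L. Untreated, KO libraries were higher in Bcl2l11 and Bmf and lower in Bcl2 and Bcl2l1 by estimate, but none of the 10 members passed the test, beside 0 of 11622 genes (0.0%); 841 genes had an unadjusted p under 0.05 and DESeq2 called 40. The log2 difference of Bcl2l11 was 0.33 ± 0.10 (edgeR adjusted p = 0.452), with every KO library above every WT library. Bmf differed by 0.60 ± 0.25 (adjusted p = 0.661), Bcl2l1 by -0.38 ± 0.15 (0.612) and Bcl2 by -0.36 ± 0.17 (0.716), and their groups overlapped. Bcl2l11 and Bbc3 were the 2 members without overlap, beside 15.2% of all genes.

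These values turned on WT replicate 1. Its Bmf, at 7.84 CPM, lay among the KO libraries, and its Bcl2l1, at 122 CPM, lay far below the 184 and 175 CPM of the other WT libraries. Without it, edgeR called 749 of 11816 genes (6.34%), and Bmf (0.85 ± 0.19, adjusted p = 0.0167) and Bcl2l11 (0.40 ± 0.07, 0.00347) were higher, and Bcl2 (-0.48 ± 0.12, 0.0269) and Bcl2l1 (-0.54 ± 0.06, 6.35e-05) lower in KO. The choice of that library was made after its values were seen, and 2 WT libraries were then left. Its Mcl1 and Bak1 lay above the other 5 libraries of the condition, and its Bid below them, in both conditions; 65.3% of all genes untreated and 56.8% with LPS had it outside the other 5.

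With LPS, none of 9 members tested passed, beside 127 of 11264 genes (1.13%). Bcl2l11 differed by 0.50 ± 0.13 (edgeR adjusted p = 0.101), from 117, 102 and 95.5 CPM in WT to 133, 182 and 133 CPM in KO, without overlap. Bcl2 differed by -0.49 ± 0.18 (0.245), also without overlap, and Bcl2l1 by -0.27 ± 0.10 (0.253), with overlap. Bid was the other member without overlap (0.14 ± 0.11), beside 20.3% of all genes. Bmf did not pass the filter on low counts, with 0 reads in WT and 7 in KO. DESeq2 called Bcl2l11 higher in KO (adjusted p = 0.0294), beside 1.85% of genes, as did edgeR without the filter (0.0294), beside 1.74%, and with library totals (0.0464), beside 1.41%. Without WT replicate 1, edgeR called 545 genes (4.76%), with Bcl2l11 at 0.58 (0.0345) and Bcl2l1 at -0.35 (0.0123). The male KO replicate 2 had the highest Bcl2l11 of its group in both conditions. Among female libraries alone, 2 against 2, the difference was 0.24 untreated and 0.32 with LPS, neither called (edgeR adjusted p = 0.992 and 0.324). WT replicate 1 is 1 of the 2 female WT libraries, and had the highest Bcl2l11 of WT in both conditions (88.0 and 117 CPM). Sex and the greater weight of that library cannot be told apart in this subset.

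The ratio of Bcl2l11 to Bcl2l1 within a library, from the RPKM, sets a BH3-only gene against a protective one without scaling between libraries. It was chosen after the values were seen and is a description. Untreated WT libraries gave 0.377, 0.221 and 0.221 and untreated KO libraries 0.396, 0.487 and 0.398. With LPS, WT libraries gave 0.294, 0.214 and 0.200 and KO libraries 0.355, 0.511 and 0.332. Each KO library lay above each WT library of its condition, as it did for Bcl2l11 alone. WT replicate 1 was the WT library nearest to KO in both conditions. For gene pairs at large, the share without overlap was not computed. The other 2 ratios computed overlapped between untreated genotypes. Bcl2l11 over Bcl2 gave 5.84, 4.06 and 3.47 in untreated WT and 5.70, 9.13 and 6.53 in untreated KO libraries, and Bax over Bcl2l1 gave 1.48, 1.19 and 1.27 against 1.47, 1.65 and 1.64. With LPS neither overlapped, at 10.0 to 14.9 in WT and 17.0 to 31.4 in KO for the former and 0.896 to 0.978 and 1.11 to 1.20 for the latter.

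**Figure D3:**
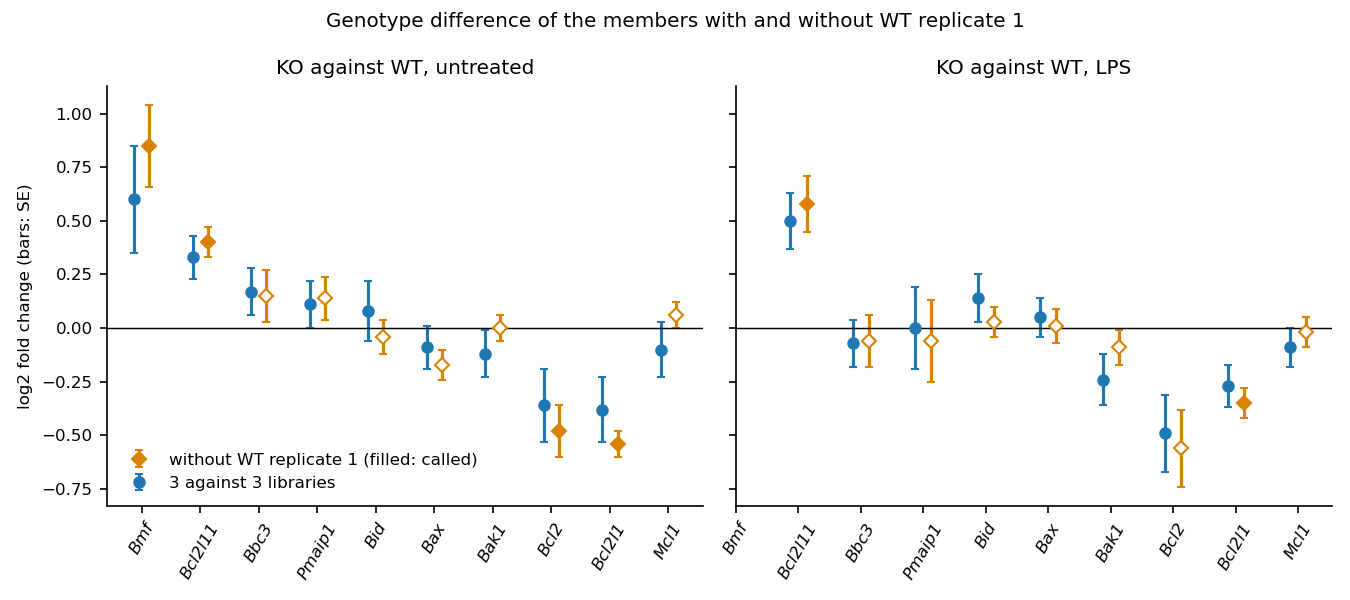
Log2 difference of KO against WT (y axis, bars are SE) for the members, untreated and with LPS, from 3 against 3 libraries (circles) and without WT replicate 1 (diamonds, filled where edgeR's adjusted p is under 0.05). No circle passed the test; without that library, 4 members untreated and 2 with LPS did. Bmf with LPS was not tested.

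**Figure D4:**
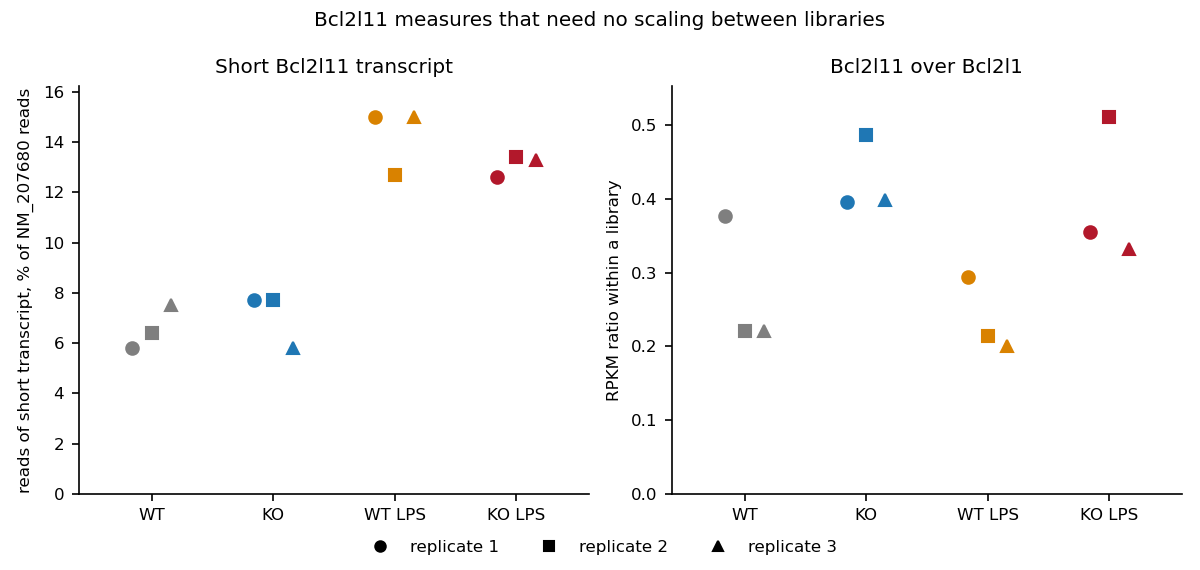
Left, reads of the short Bcl2l11 transcript NM_001284410 as a percentage of the reads of NM_207680; right, the RPKM ratio of Bcl2l11 to Bcl2l1, each with a point per library. The percentage on the left lies at 5.8% to 7.7% untreated and 12.6% to 15.0% with LPS. Reads in stretches shared by both transcripts enter it, so it is not a level of the short transcript. The ratio on the right, chosen after the values were seen, is higher in KO than in WT libraries within each condition. Bcl2l11 over Bcl2 and Bax over Bcl2l1, not drawn, overlap untreated.

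Whether LPS acted differently in KO cells was tested by the interaction of genotype and LPS. No gene and no member was called (0 of 11984 genes, 0.0%; DESeq2 also called 0, and 288 genes had an unadjusted p under 0.05). The interaction was 0.21 ± 0.18 for Bcl2l11, 0.15 ± 0.18 for Bcl2l1, -0.10 ± 0.25 for Bcl2 and -0.07 ± 0.23 for Pmaip1 on the log2 scale, each with an edgeR adjusted p of 1.0. For Bmf the fit gave 3.81 ± 2.01, also not called. That estimate rests on 0 reads in WT and 7 in KO with LPS, so its size is not a measured one. The calls of Bid and Bax in KO alone are thus not shown to differ from WT.

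Around the members, 8 lists with 92 genes of the pathway were read in the same fits. Their calls with LPS stand beside those of all genes. Under TMM 27.6% of all genes rose and 29.8% fell in WT, and 30.3% and 30.9% in KO. By library totals 14.4% rose and 63.6% fell in WT, and 14.8% and 65.3% in KO, with medians of -0.59 and -0.62. A count near these shares does not set a list apart. Among the other protective members, 4 of 5 tested rose with LPS in both genotypes, all of them Bcl2a1 copies. Bcl2a1d rose by 4.79 and 5.77 and Bcl2a1b by 3.14 and 3.59 on the log2 scale, and Bcl2a1a by a pooled ratio of 41.3 (95% interval 18.6 to 114) and 138 (46.7 to 672). The call of Bcl2a1c rests on few reads, from 0 to 15 in WT, where the groups overlapped, and from 2 to 42 in KO. These copies are near-identical, so the split of reads among them is uncertain. The median of that list was 4.79 and 4.54, or 3.14 and 4.83 with copies of low counts at their pooled ratio or bound. Among the other genes listed as effector or BH3-only, 0 of 5 tested rose. Bcl2l12 (-1.17 and -0.65) and Bnip3l (-0.37 and -0.23) fell, with a median of -0.22 and -0.19 for the list. By library totals all 5 fell. The class of each gene was taken from the list, so the fall of Bcl2l12 is not read as a fall of that class.

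Downstream of the pore, Apaf1, the scaffold of the apoptosome, rose by 1.72 ± 0.11 and 1.87 ± 0.11, while Casp9, the caspase it activates, fell by 1.89 ± 0.15 and 2.02 ± 0.15. Both kept their direction by library totals. Of the 13 genes of this list, 4 rose and 1 fell in WT, and 4 rose and 3 fell in KO. By library totals it was 2 and 9, and 3 and 10. The share that rose under TMM was near that of all genes. The median was 0.06 in WT and -0.04 in KO. Of 9 genes listed as caspase inhibitors, 3 rose in each genotype, a share also near that of all genes. They were Birc3 (3.39 and 3.49), Birc2 (1.96 and 1.92) and Xiap (0.69 and 0.81). Xiap was not called by library totals in WT. Birc5 and Naip1 fell, the latter on few reads, from 22 to 2 in WT and from 39 to 7 in KO. By library totals 6 fell in each genotype, with Birc6, Naip2, Naip5 and Naip6 among them. The median was -0.04 and 0.10 under TMM and -0.59 and -0.50 by library totals. A role of the Naip genes as caspase inhibitors is not shown here, so these counts and medians do not describe that class alone.

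Of 12 tested genes of the death receptor pathway, 8 rose and 1, Fadd, fell in each genotype. By library totals 6 rose in each, and 3 fell in WT (Fadd, Tradd and Ripk3) and 4 in KO (also Cyld, which rose under TMM). Cflar, which encodes the caspase 8 inhibitor FLIP, rose by 3.85 and 3.95, the receptor Fas by 4.31 and 4.69, and Tnfrsf1b by 2.29 and 2.24. The median of the list was 0.69 and 0.72. Among transcription factors known to drive BH3-only genes, 7 of 10 tested fell and 2 rose in each genotype, with a median of -0.72 in both; by library totals 8 fell and 2 rose. Foxo3, which drives Bcl2l11 and Bbc3 in other cells, fell by 4.06 in both, Myc fell by 2.58 and 2.98, and the glucocorticoid receptor Nr3c1 rose by 1.06 and 1.15. p53 targets outside the family split, with 4 of 13 higher and 8 lower, or 3 and 8 by library totals, and a median of -0.53 and -0.70. The cell cycle inhibitor Cdkn1a rose by 2.71 and 2.83 and Sesn1 fell by 4.56 and 4.98. Of 17 partners and regulators, 6 rose and 3 fell in WT and 9 rose and 2 fell in KO under TMM, against 4 and 10, and 3 and 9, by library totals, with a median of 0.13 and 0.35 under TMM. Ier3, an early response gene, rose by 2.54 and 2.84 and the heat shock gene Hspa1b, a near-identical copy of Hspa1a, by 3.64 and 3.88.

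Between genotypes the lists were read against the background of all genes. Untreated, 0 genes of the 8 lists were called, beside 0 of 11622 genes, and with LPS 1 was, beside 1.13% of genes, a share near that background. It was Ier3, at 0.60 ± 0.09 in KO against WT (edgeR adjusted p = 0.00874). The most abundant tested gene of each other list with LPS, Bcl2a1b, Bnip3l, Apaf1, Birc6, Tnfrsf1b, Nr3c1 and Cdkn1a, differed by between -0.15 and 0.17. Untreated, they and Ywhab of the last list differed by between -0.58, for Bcl2a1b, and 0.14. Less abundant genes of the lists differed more with LPS without being called. Among them were Fas (0.45 ± 0.09, edgeR adjusted p = 0.0504) and Myc (-0.75 ± 0.18, 0.0857).

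Genes whose profile over the 12 libraries lay closest to a member's were found among 11434 genes by the root mean square difference of centred log2(CPM + 0.5), for the 4 members with the largest change with LPS in WT under TMM. By library totals Mcl1 (-0.65) and Bax (-0.48) moved further than Bak1 (0.10). Arrdc3 (0.215), Tmem86a (0.295) and Lpar6 (0.337) were closest to Bmf. Coq10a (0.122), Rsc1a1 (0.137) and Atmin (0.146) were closest to Pmaip1, Cdca7l (0.135), Metrnl (0.151) and Mvb12b (0.152) to Bcl2, and Ube2m (0.0674), Zbtb7a (0.0723) and U2surp (0.0763) to Bak1. All 12 libraries share the separation by LPS, and the first principal component, which parts treated from untreated libraries, held 87.3% of the variance.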

How the data were processed

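The deposited tables hold whole-number read counts, not normalized, and the authors' RPKM values (reads scaled by transcript length and library size, as the name in the file headers says); untreated and LPS-treated libraries are in separate tables. Per the submitters' processing notes, STAR 2.5.2b, SAMtools 1.3.1 and mm10 were used; which counter, strand mode and gene models were used is not given in the sources used here. Reads are single-end, 50 bases, per the labels' protocols. Transcripts were named from RefSeq (GRCm38.p6), and 1 transcript per gene, that with the highest total count, was kept. Unnamed transcripts took 0.259% to 0.738% of counts and were left out.

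Genotypes were compared on the 6 libraries of each condition. LPS responses and the interaction were fitted on all 12 as 4 groups, with TMM scaling, filterByExpr and the robust quasi-likelihood F test of edgeR 4.0.16 (R 4.3.3, limma 3.58.1), and Benjamini-Hochberg adjustment over all genes at 0.05. DESeq2 1.42.0, other scalings, no filter, RPKM as log2(RPKM + 1), a replicate block, the lowest transcript and leaving out libraries were alternatives. SE is the change over the square root of F. CPM are on a common TMM scale. Intervals and floors of 3 counts cover counting error only. The script was tested on simulated data.

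Libraries of the same genotype and number deviated together between untreated and LPS (r = 0.63, 0.61 and 0.35 in WT and 0.28, 0.47 and 0.21 in KO). The highest r with another number was -0.21, -0.03 and 0.19 in WT and 0.15, -0.28 and 0.13 in KO. The margin was thus clear for WT replicates 1 and 2 and KO replicate 2, and small for the others. On these values the numbers were taken to pair the LPS comparisons. The pairing comes from the data, not from the labels. The main LPS fits do not use it, and neither does the permutation test of transcript shares. The replicate block, which does, is given as an alternative.

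All 10 members are named. Of each pathway list up to 3 called genes by smallest p are named, or the most abundant where none was called, and the 3 most alike genes of 4 members. A gene that this rule would name is not reported here. The members and lists were chosen with earlier results of these data known. The short Bcl2l11 transcripts, the ratio and the separate reading of WT replicate 1 were chosen after values were seen.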

Additional observations from a re-analysis of the deposited data

How the results depend on the processing

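Depth limits Bmf with LPS, where a library holds 0 to 4 reads, and 3 libraries per group limit the genotype comparisons. The falls of Bmf, Pmaip1 and Bcl2 with LPS kept their direction and their call in every alternative run. The rises did not: with log2(RPKM + 1) in limma, values in WT were -0.15 for Bcl2l11, -0.47 for Bax, -0.31 for Bid and -0.02 for Bbc3, and in KO -0.01, -0.35, -0.25 and -0.24 for the same genes and -0.03 for Bak1. With library totals they were -0.16, -0.48, -0.31 and -0.02 in WT and 0.0, -0.36, -0.27 and -0.27 in KO, with -0.03 for Bak1. The scaling by construction moves every gene alike.

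Genes called between untreated genotypes, 0 in the report, numbered 9 without a filter, 40 with DESeq2, 27 in a fit on 12 libraries and 1 with library totals. With LPS, 127 became 276 without a filter, 237 with DESeq2 and 17 in female libraries; members called were 1 without a filter, 1 with DESeq2 and 1 with library totals, Bcl2l11 each time. Interaction calls were 8 genes with RPKM and 24 without WT replicate 1 in both conditions.

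The replicate block changed the call of Bid in WT with LPS and no other member call; called genes went from 6876 to 8156 in WT and from 7333 to 8701 in KO. For genotypes, same-numbered libraries deviated together less (r = 0.04, 0.14 and 0.30 untreated, -0.05, 0.18 and 0.14 with LPS), not every library correlated best with its own number, and the block gave 0 genes untreated and 47 with LPS, 0 members in either, and -0.01 for Pmaip1 with LPS.

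In the interaction, signs changed for Bcl2l11 with the lowest transcript (-0.01), for Bmf (-0.36), Bcl2 (0.01) and Mcl1 (-0.01) with RPKM, for Mcl1 with library totals (-0.01) and without WT replicate 1 in both conditions (-0.08), and for Bid (-0.01) and Pmaip1 (0.0) in female libraries. For Bmf the main fit on counts gave 3.81, with 0 reads in WT with LPS. Its mean RPKM went from 1.32 to 0 in WT and from 2.07 to 0.033 in KO, and 1 was added to each RPKM before the log. The cause of the sign changes was not tested.

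Leaving out 1 library at a time gave 0 to 749 called genes and 0 to 4 members untreated, and 17 to 545 genes and 0 to 2 members with LPS, the highest each time without WT replicate 1. Values ran from -0.18 to 0.06 for Mcl1 and -0.04 to 0.17 for Bid between untreated genotypes, from -0.13 to 0.18 for Pmaip1 between genotypes with LPS, and from -0.18 to 0.07 for Mcl1 and 0.0 to 0.14 for Bax with LPS in WT. In the interaction they ran from -0.29 to 0.03 for Bcl2, -0.15 to 0.11 for Mcl1, -0.23 to 0.06 for Bak1, -0.02 to 0.19 for Bid and -0.21 to 0.09 for Pmaip1.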
